A study of Danio rerio with 8 samples.

Results

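gpnmb (ENSDARG00000062688) is 1 of the 24221 genes in a table of read counts from zebrafish macrophage-lineage cells, and its row was found by gene name. It was chosen by its level and rank in these same libraries, which differed between the genotypes, so its levels and its fold are given as a description, without a p-value. The gene lies on GRCz11 chromosome 19, from 20247435 to 20270207 on the minus strand, is annotated as protein coding, and has a gene length of 6477 bases in the deposited table. The count table shows no level per exon or transcript, so every value is for the whole gene.

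The cells carried GFP under the mpeg promoter, which is active in macrophages and microglia, and were sorted from dissociated larvae of strain TL aged 6 days. There were 4 libraries of rraga mutants and 4 of their wild-type siblings. All larvae were raised with PTU, an inhibitor of melanin formation, and were scored as mutant or wild type with a confocal microscope on days before the sort. The labels give neither the allele nor the number of larvae or clutches in a library, so a p-value reflects only how these libraries vary. Libraries are named by the number in their column (1, 2, 4 and 5 in each genotype), which differs from the numbers in the sample titles.

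The GPNMB protein is a transmembrane glycoprotein of lysosomes and melanosomes, related to the melanosome matrix protein PMEL. In mammals it is made by pigment cells and by macrophages whose lysosomes are loaded or damaged, its gene is a target of the MiT/TFE transcription factors, and its outer part can be cut from the cell surface by ADAM proteases. In zebrafish gpnmb transcripts are also known from pigment cells. rraga encodes RagA, a small GTPase that brings mTORC1 to the lysosome and through it restrains MiT/TFE factors.

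gpnmb was abundant in every mutant library and moderate in every sibling library. Its raw count was 121579, 88085, 86539 and 187777 in mutant libraries 1, 2, 4 and 5, against 2188, 1190, 2291 and 2584 in sibling libraries 1, 2, 4 and 5. As CPM (each count set relative to the scaled total of its library), these were 4439, 3864, 3369 and 6236 in the mutants, against 71.3, 40.5, 89.7 and 84.8 in the siblings. The groups did not overlap, as for 31.4% of all tested genes (15.7% with mutants above and 15.7% with mutants below, read here as background only), and the lowest mutant library stood 37.6-fold above the highest sibling library. Mean levels were 4477 ± 1252 CPM in mutants and 71.6 ± 22.1 CPM in siblings (SD, n = 4 each), a fold of 62.6 (log2 fold change 5.97, SE 0.328, from the fit across all genes). Taking libraries of the same number as pairs, the fold was 62.2, 95.5, 37.6 and 73.5 for numbers 1, 2, 4 and 5.

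**Figure D1:**
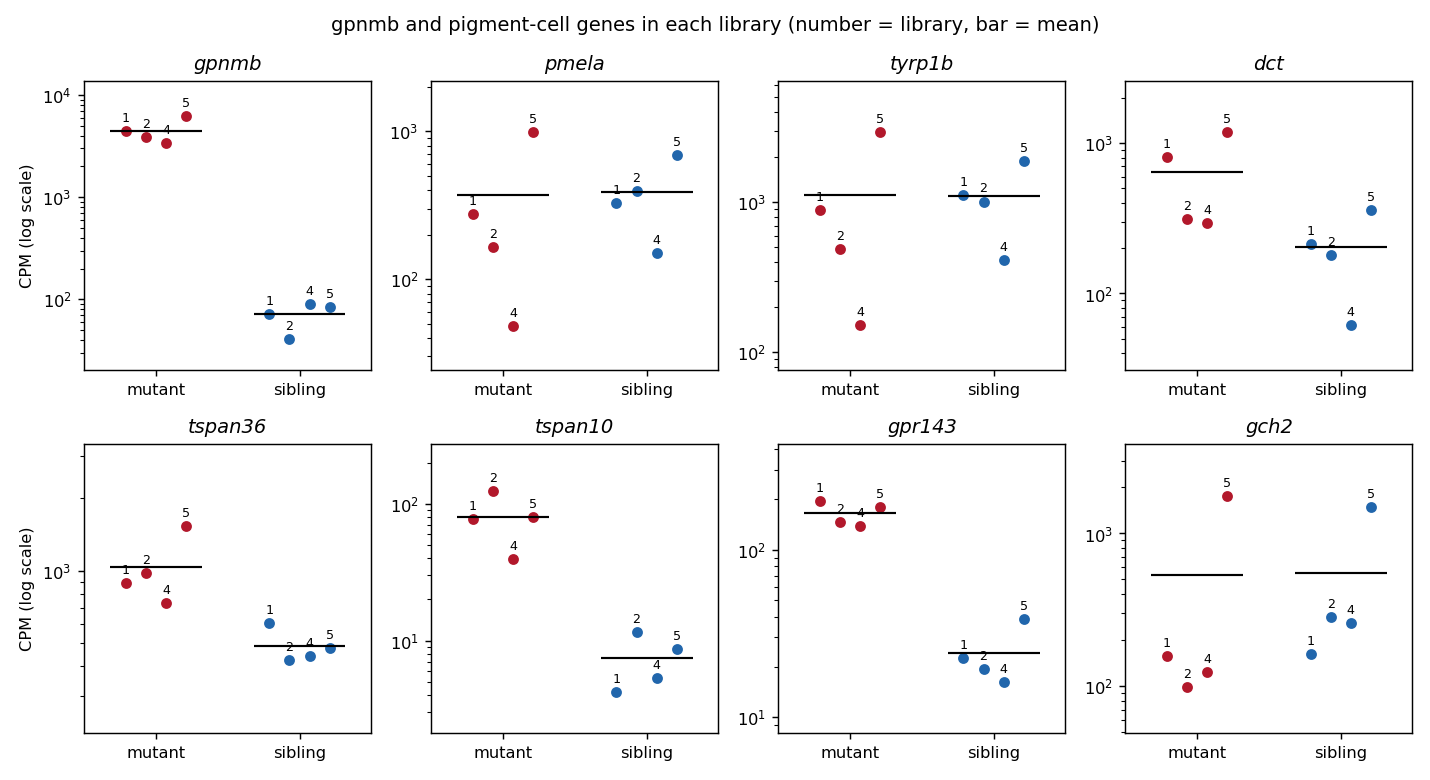
Level in each library of gpnmb and of 7 pigment-cell genes in CPM on log axes, with mutants left of siblings, the library number beside each point and the mean as a bar. The mutant libraries of gpnmb lie between 3369 and 6236 CPM and the sibling libraries between 40.5 and 89.7 CPM, whereas pmela, tyrp1b and gch2 spread widely within each genotype and overlap between them.

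The spread within a genotype was small beside this difference. The highest mutant library held 1.85 times the CPM of the lowest, and the highest sibling library 2.22 times that of the lowest. By CPM, mutant library 5 was the highest and mutant library 4 the lowest, while among siblings library 4 was the highest and library 2 the lowest. gpnmb took 0.607% of all counts in mutant library 5 (95% Wilson interval 0.605% to 0.610%) and 0.319% in mutant library 4 (0.316% to 0.321%). In the siblings its share lay between 0.00438% in library 2 (0.00414% to 0.00463%) and 0.00940% in library 5 (0.00904% to 0.00977%). These intervals cover counting error only.

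Ranked by CPM among all genes, gpnmb stood at place 21, 25, 26 and 10 in mutant libraries 1, 2, 4 and 5, against 2250, 3516, 1884 and 1876 in sibling libraries 1, 2, 4 and 5. Because longer genes collect more reads, levels were also set per gene length, as TPM. gpnmb had 1232, 1110, 969 and 1867 TPM in the mutants, at ranks 114, 128, 161 and 70, against 21.97, 13.5, 26.6 and 27.8 TPM in the siblings, at ranks 4550, 6133, 4000 and 4103. Its mean of 1294 ± 396 TPM in mutants put it beside havcr1 (1324 ± 164), atp6ap1b (1302 ± 179), the accessory subunit gene of the lysosomal proton pump, and the tetraspanin gene tspan36 (1294 ± 475). In siblings its mean of 22.5 ± 6.49 TPM put it beside elp2 (22.5 ± 4.37) and nus1 (22.5 ± 3.81). These neighbours differ from gpnmb by far less than the spread of either gene.

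Among the 8084 tested genes with a mean of at least 10 CPM in the higher genotype, gpnmb had the rank 10 by log2 fold change. By CPM, the 9 genes with a larger fold were all less abundant than gpnmb in mutants. The most abundant of them was gda, for guanine deaminase, at 2069 CPM in mutants against 11.9 CPM in siblings. Per length, gda was above gpnmb in mutants, at 1989 ± 245 TPM against 1294 ± 396 TPM. Directly above gpnmb in fold were ankrd6a (13.3 ± 2.64 against 0.203 ± 0.104 CPM), twf2a and calcoco1b, and directly below it were cobll1a, mmp25b and slc22a13a. Of the 17 genes with a higher mean CPM than gpnmb in mutants, 8 passed the test as higher there, and actb2 and eef1a1l1 passed as lower. Of all tested genes 14.5% rose and 13.9% fell. The 17 were picked by a high level in mutants, which favours rises, so their count is not a separate result. The folds of the 8 that rose reached 9.58, for the legumain gene lgmn. Of these 8, 4 exceeded 4-fold, all 4 for lysosomal proteases (lgmn, ctsd, ctsc and ctsla). Per length, lgmn had 13012 ± 1443 TPM and ctsd for cathepsin D 9982 ± 1248 TPM in mutants, both well above gpnmb.

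**Figure D2:**
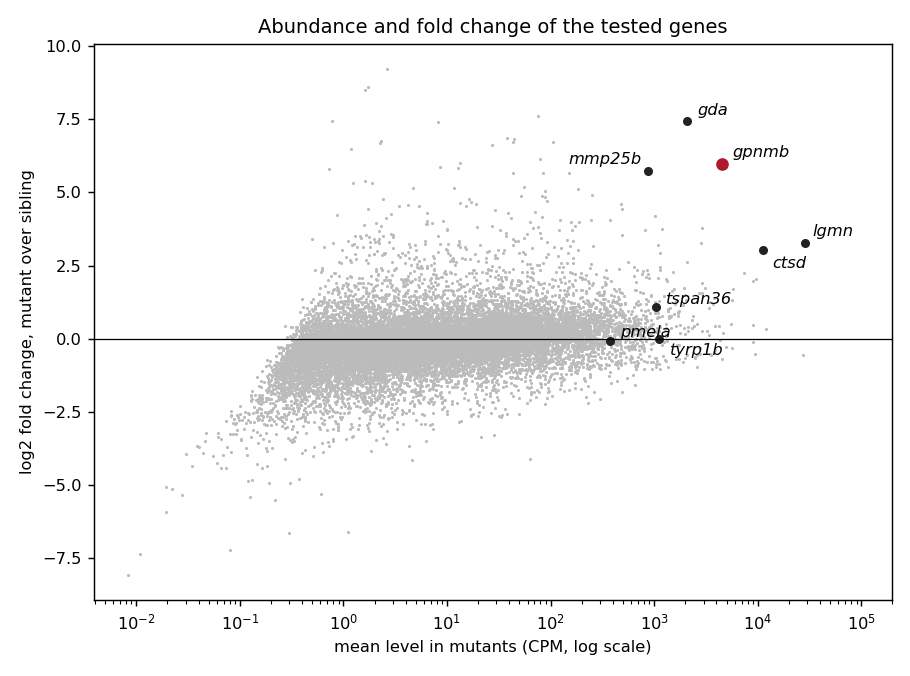
Mean level in mutants in CPM on a log axis against the log2 fold change of mutant over sibling, with a point for each of 16085 tested genes (1 gene at 0 in mutants is not drawn). gpnmb, in red at 4477 CPM and a log2 fold change of 5.97, lies to the right of all genes with a larger fold. The most abundant of those is gda, at 2069 CPM and a log2 fold change of 7.44. mmp25b, at 872 CPM, has a slightly smaller fold than gpnmb (log2 fold change 5.72). Per gene length, gda is above gpnmb in mutants (1989 against 1294 TPM).

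Over the whole table, mutant libraries held 24940664 to 30911560 counts and sibling libraries 25530526 to 29147340. Of 16086 tested genes, 14.5% rose and 13.9% fell in the mutants, 28.4% in all (quasi-likelihood test of edgeR, Benjamini-Hochberg adjustment, threshold 0.05). Of all calls 51.1% were higher in mutants, and 34.7% when counts were scaled by library size alone, which put the median over tested genes at -0.26 on the log2 scale, against -0.09 with the main scaling. For the labelled cell type, 7 defining macrophage markers were examined, among them spi1b, lcp1 and marco. All 7 had at least 1072 reads in every library, and their sum was 5093 to 6272 CPM in mutants and 5629 to 6862 CPM in siblings. Such reads do not settle the cell type, as the melanophore gene tyrp1b and the muscle gene actc1b had at least 3909 and 6581. Within the sum, spi1b rose (1428 ± 47.5 against 685 ± 75.8 CPM) and lcp1 fell (2468 ± 227 against 3846 ± 323 CPM). The whole list of 21 macrophage lineage genes summed to 5624 to 6922 CPM in mutants and 7350 to 8630 CPM in siblings, without overlap, and 1 of them rose and 14 fell. mpeg1.1, one of the genes of the mpeg name, fell to 65.5 ± 23.7 CPM in mutants, against 231 ± 13.2 CPM in siblings (adjusted p = 5.4e-04, edgeR).

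The MiT/TFE family, whose members bind the promoters of lysosomal genes and, in mammals, of GPNMB, has 6 genes in the table, and 3 of 6 rose and 1 fell, beside 14.5% and 13.9% of all tested genes. tfec, the family member known in zebrafish from iridophores and retinal pigment epithelium, was the most abundant, at 191, 203, 156 and 266 CPM in mutant libraries 1, 2, 4 and 5, against 83.1, 83.7, 99.9 and 116 CPM in the siblings. It rose 2.13-fold (log2 fold change 1.09, SE 0.177, adjusted p = 0.00181, edgeR). mitfb rose 2.16-fold to 15.8 ± 4.57 CPM in mutants, against 7.31 ± 0.771 CPM in siblings (adjusted p = 0.00476, edgeR). tfeb also rose and tfe3a fell. mitfa, the factor that melanophores require, had 8.73, 4.12, 4.05 and 15.5 CPM in mutants, against 14.9, 14.1, 4.58 and 20.8 CPM in siblings, and did not pass (adjusted p = 0.332, edgeR).

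Of the 3 relatives of gpnmb in the table none passed the test. pmela, which encodes the fibril protein of the melanosome matrix, had 276, 166, 48.4 and 997 CPM in mutant libraries 1, 2, 4 and 5, against 329, 394, 150 and 695 CPM in sibling libraries 1, 2, 4 and 5. These ranges overlap widely, with library 5 highest and library 4 lowest in both genotypes, and it did not pass (log2 fold change -0.08, SE 0.777, adjusted p = 0.953, edgeR). pmelb, the second copy of pmel, was near the detection limit, at 0.438, 0, 1.13 and 0.432 CPM in mutants, against 1.12 to 3.52 CPM in siblings. It did not pass (adjusted p = 0.0751, edgeR) and passed as lower with library number as a block (adjusted p = 0.0344, edgeR). tmem130, for a protein with the same kind of domain, stood at 37.4 ± 62.4 against 29.6 ± 41.6 CPM, with library 5 far above the others in both genotypes. Per length, gpnmb at 1294 ± 396 TPM exceeded pmela at 206 ± 243 TPM in mutants, and in siblings gpnmb at 22.5 ± 6.49 TPM was below pmela at 238 ± 144 TPM.

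Of the proteases reported to shed the GPNMB ectodomain in mammals, adam10a alone passed the test of 4 listed genes. It had 436, 524, 422 and 517 CPM in the mutants, against 334, 367, 345 and 347 CPM in the siblings. The rise was 1.36-fold (log2 fold change 0.45, SE 0.103, adjusted p = 0.0106, edgeR), and the test was not passed when counts were scaled by library size alone (adjusted p = 0.0833, edgeR). adam17a (49.4 ± 9.68 against 52.1 ± 9.38 CPM), adam10b (5.97 ± 1.37 against 8.83 ± 1.35 CPM) and adam17b (6.40 ± 0.907 against 3.84 ± 2.08 CPM) did not pass.

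Of 14 tested genes for proteins reported to bind GPNMB in mammals 1 rose and 2 fell, or 7.14% and 14.3%, beside 14.5% and 13.9% of all tested genes, which is no more than the background for rises and near it for falls. With library number as a block 4 rose and 3 fell, where 17.8% and 16.6% of all tested genes did. itga5, for the fibronectin-binding integrin alpha 5, rose 5.85-fold to 64.1 ± 24.0 CPM, against 10.9 ± 5.31 CPM in siblings (adjusted p = 9.1e-04, edgeR). itgb1b.1, an integrin beta 1 gene, fell to 25.2 ± 6.33 CPM against 56.1 ± 4.27 CPM, and atp1a3a, a sodium pump subunit gene, to 10.8 ± 2.72 CPM against 26.0 ± 6.21 CPM. Other integrin beta 1 and sodium pump genes did not fall with them. itgb1b (52.7 ± 10.1 against 37.2 ± 7.48 CPM) and atp1a1a.1 (2145 ± 356 against 1769 ± 257 CPM) did not pass in the main fit. Both passed as higher with library number as a block (adjusted p = 0.00374 and 0.0262, edgeR). itgb1a, itgb1b.2 and atp1a3b passed in neither fit. By CPM, the syndecan gene sdc4 was nearly as abundant as gpnmb in mutants, at 3903 ± 401 CPM against 2882 ± 593 CPM in siblings. Per length, sdc4 was above gpnmb in mutants, at 3156 ± 327 TPM against 1294 ± 396 TPM. sdc4 did not pass (adjusted p = 0.0654) and passed with library number as a block (adjusted p = 0.00450, both edgeR). The hyaluronan receptor genes cd44a (15.9 ± 3.09 against 20.1 ± 4.32 CPM) and cd44b (19.3 ± 3.50 against 18.9 ± 3.40 CPM) did not pass.

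Transcripts of pigment cells were present in every library, and most did not pass the test between the genotypes. Of 58 tested genes on the lists for melanophores, iridophores, xanthophores, retinal pigment epithelium and neural crest, 8 rose and 2 fell, or 13.8% and 3.45%, beside 14.5% and 13.9% of all tested genes. Their median log2 fold change was 0.13, against -0.09 for all tested genes. With library number as a block 15 rose and 8 fell, where 17.8% and 16.6% of all tested genes did. Without both libraries numbered 5, a setting added once the values were known, 10 rose and 4 fell. Fewer genes of the whole table fell at this setting than in the main fit. The shares above are therefore no background for these last counts. The 2 that fell in the main fit were rpe65a and bco1l, a gene of the xanthophore list. bco1l was at 1.68 ± 0.436 CPM in mutants, against 5.47 ± 3.11 CPM in siblings (adjusted p = 0.0188, edgeR). It did not pass with limma-voom (adjusted p = 0.0604) or without mutant library 1 (adjusted p = 0.0544, edgeR), among other settings. In pooled cells, fewer cells of a type and less RNA per cell cannot be told apart.

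The summed level of 6 defining melanophore markers varied more between libraries than between genotypes. These markers (pmela, dct, tyr, tyrp1b, oca2 and slc24a5) summed to 1993, 973, 498 and 5142 CPM in mutant libraries 1, 2, 4 and 5, against 1670, 1607, 631 and 2979 CPM in sibling libraries 1, 2, 4 and 5. All 6 were detected in every library. Mutant library 4 had the lowest sum of all 8 libraries, below every sibling, and in that library gpnmb stood at 3369 CPM. Because gpnmb was chosen for its difference between the genotypes, its high level there is not a separate result. The cell source of gpnmb was not tested. Among mutants the melanophore sum spanned 10.3-fold between the lowest and the highest library, where gpnmb spanned 1.85-fold. In mutants gpnmb and the sum had the same order of libraries (5, 1, 2, 4 from high to low). In siblings the top library for gpnmb depended on the scale. By CPM it was library 4 (89.7, against 84.8 in library 5), where the melanophore sum was lowest. By TPM it was library 5 (27.8, against 26.6 in library 4), where the melanophore sum was highest.

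The ratio of gpnmb to single melanophore genes was also taken. gpnmb CPM divided by pmela CPM was 6.26 to 69.6 in mutant libraries and 0.103 to 0.598 in sibling libraries. Divided by tyrp1b, for the melanosomal oxidase tyrosinase-related protein 1, it was 2.14 to 22.1 in mutants and 0.0400 to 0.217 in siblings. Neither pair of ranges overlaps, and as gpnmb was chosen for its difference between the genotypes, this is not a separate result. Set per gene length, gpnmb over pmela was 3.32 to 36.9 in mutants and 0.0545 to 0.317 in siblings. gpnmb over tyrp1b per length was 0.649 to 6.73 in mutants and 0.0122 to 0.0659 in siblings. In mutant library 5, tyrp1b was thus above gpnmb per length. tyrp1b itself had 888, 485, 152 and 2920 CPM in mutants, against 1114, 1012, 414 and 1893 CPM in siblings (log2 fold change 0.00, SE 0.762, adjusted p = 0.997, edgeR).

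The 4 defining xanthophore markers, led by gch2 for GTP cyclohydrolase of pteridine synthesis, summed to 176, 104, 130 and 2070 CPM in mutants, against 182, 330, 283 and 1707 CPM in siblings. Library 5 was far above the rest in both genotypes, and mutant libraries 1, 2 and 4 were below every sibling. The log2 ratio of the mean sums was -0.01 with all libraries. It was -2.16 without mutant library 5 and 1.23 without sibling library 5, so it depended on these libraries. The 6 defining iridophore markers include tfec. In mutants they summed to 336, 214, 161 and 504 CPM, and in siblings to 172, 125, 203 and 185 CPM. tfec alone gave 191, 203, 156 and 266 CPM of the mutant sums. Of the sibling sums it gave 83.1, 83.7, 99.9 and 116 CPM. In mutant libraries 2 and 4 the sum was thus nearly all tfec, and it does not show the level of the other iridophore markers. Among iridophore markers, pnp4a, for a purine nucleoside phosphorylase of guanine synthesis, had 107, 7.81, 4.83 and 195 CPM in mutants, against 58.6, 28.0, 83.0 and 55.9 CPM in siblings. In mutant libraries 2 and 4 pnp4a was below every sibling, and gpnmb was at 3864 and 3369 CPM. The high level of gpnmb there was given by its choice and is not a separate result. The other defining iridophore markers ltk, alx4a, alx4b and fhl2a did not pass either, and tfec, listed with them, rose as given above. The 3 defining markers of the retinal pigment epithelium (rpe65a, rlbp1b and rgra) summed to 3.16 to 20.6 CPM in mutants and 21.3 to 74.7 CPM in siblings, without overlap. The whole list of 12 such genes summed to 155 ± 80.4 CPM in mutants and 96.4 ± 42.4 CPM in siblings, and it holds tyrp1a, its most abundant gene in mutants, which rose. rpe65a, for the retinoid isomerase, fell by 1.91 on the log2 scale (SE 0.516, adjusted p = 0.0214, edgeR). It did not pass without mutant library 5 (adjusted p = 0.0516) or without sibling library 4 (0.0571) or 5 (0.0562). It passed with library number as a block (adjusted p = 0.00263, edgeR). Of the 8 tested genes of the list, 1 fell and 1 rose in the main fit. With the block 5 fell and 1 rose, where 16.6% and 17.8% of all tested genes did.

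**Figure D3:**
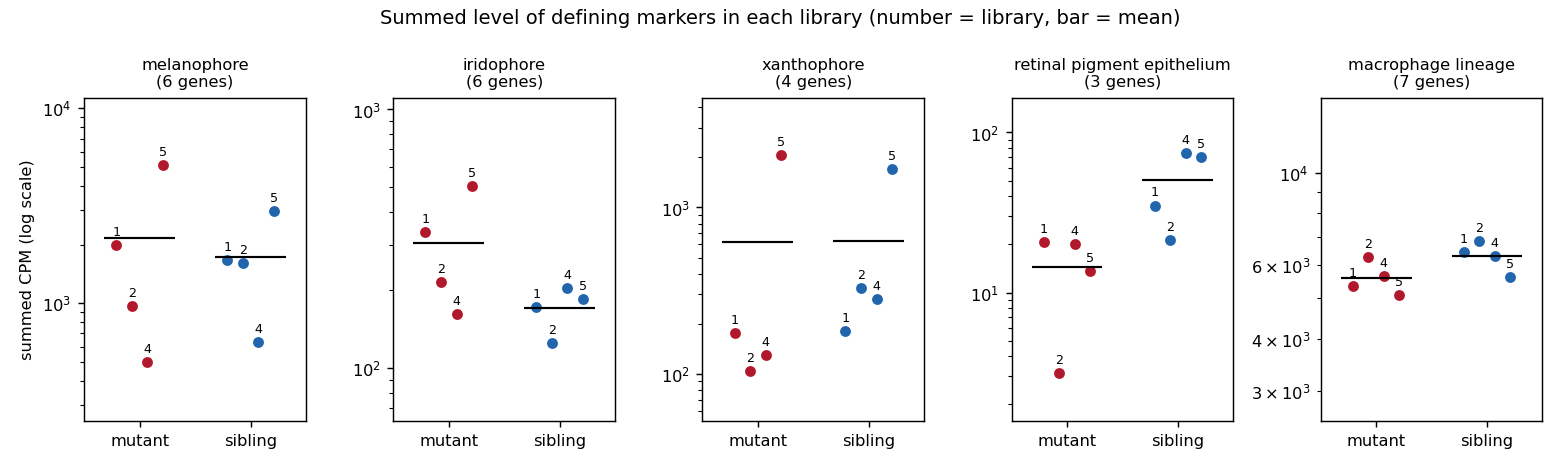
Summed CPM on log axes of the defining markers of 4 pigment classes and of the macrophage lineage in each library, with mutants left of siblings, the library number beside each point and the mean as a bar. Melanophore and xanthophore sums are highest in library 5 of both genotypes, and the melanophore sum of mutant library 4 (498 CPM) is the lowest of the melanophore sums. The macrophage sum, in which spi1b rose and lcp1 and mpeg1.1 fell, lies between 5093 and 6862 CPM.

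Of 20 tested melanophore genes 5 rose and 0 fell, beside 14.5% and 13.9% of all tested genes, and with library number as a block 10 rose and 0 fell, beside 17.8% and 16.6%. Without both libraries numbered 5, 6 rose and 1 fell. For these last counts the shares above, from other fits, are no background. The median log2 fold change of the list was 0.42. tspan36, a tetraspanin gene, had 890, 974, 733 and 1530 CPM in mutants, against 606, 423, 441 and 479 CPM in siblings, and rose 2.12-fold (adjusted p = 0.00617, edgeR). All mutant libraries were above all sibling libraries for tspan36. By CPM, gpnmb over tspan36 stayed between 3.97 and 4.99 in mutants, against 0.0956 to 0.204 in siblings. Per length this ratio was 0.917 to 1.15 in mutants and 0.0221 to 0.0470 in siblings. The gap between the genotypes in this ratio follows from the choice of gpnmb and is not a separate result.

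tspan10, for another tetraspanin, had 77.3, 125, 39.6 and 79.9 CPM in mutants, against 4.24, 11.6, 5.36 and 8.67 CPM in siblings, a rise (log2 fold change 3.43, SE 0.414, adjusted p = 3.6e-04, edgeR). gpr143, for the G protein-coupled receptor of melanosomes and endolysosomes, had 195, 146, 140 and 181 CPM in mutants, against 22.6, 19.5, 16.2 and 38.5 CPM in siblings. It rose 6.85-fold (log2 fold change 2.78, SE 0.268, adjusted p = 1.0e-04, edgeR), and its mutant libraries differed by no more than 1.40-fold. Both genes kept the genotypes apart in every library, including mutant library 4, where pmela was lowest.

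tyrp1a, the paralog of tyrp1b, had 171, 76.9, 66.3 and 221 CPM in mutants, against 25.8, 23.2, 13.3 and 61.8 CPM in siblings, and rose 4.32-fold (adjusted p = 0.0152, edgeR). Paralogs may share reads, so the split between tyrp1a and tyrp1b is uncertain. trpm1a, for a cation channel of melanophores, rose at the low level of 0.864 to 1.45 CPM in mutants, against 0.0326 to 0.235 CPM in siblings (log2 fold change 3.32, adjusted p = 0.00473, edgeR). Its paralog trpm1b did not pass. The highest mutant library stood 29.1-fold above the lowest for trpm1b and 1.68-fold for trpm1a. dct, for dopachrome tautomerase of melanin synthesis, had 810, 311, 293 and 1178 CPM in mutants, against 214, 181, 61.7 and 357 CPM in siblings. Its ranges overlapped through sibling library 5 and it did not pass (adjusted p = 0.0565), although it passed with library number as a block (adjusted p = 0.00220, both edgeR).

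Outside the melanophore list, the pigment genes that rose were tfec, the aldose reductase gene akr1b1 and the transcription factor gene tfap2e. tfap2e, which encodes AP-2 epsilon of the melanophore lineage, had 78.1, 59.3, 64.1 and 109 CPM in mutants, against 9.13, 12.4, 3.76 and 29.0 CPM in siblings (log2 fold change 2.51, SE 0.526, adjusted p = 0.00661, edgeR). sox10, which marks neural crest derivatives, did not follow, at 3.69, 1.01, 0.623 and 21.4 CPM in mutants, against 3.85, 6.09, 3.01 and 15.1 CPM in siblings (adjusted p = 0.969, edgeR). The neural crest marker crestin had at most 20 reads in any library.

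gpnmb protein travels to lysosome-related organelles, a class that includes melanosomes. Genes that build them rose in most cases. Of 30 tested genes of lysosome-related organelle biogenesis 23 rose and 0 fell, or 76.7% beside 14.5% of all tested genes, with a median log2 fold change of 0.88. Their summed level was nearly constant within a genotype, at 2631 to 2762 CPM in mutants and 1301 to 1430 CPM in siblings. The list was chosen with earlier results of these data known.

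rab38b, for a small GTPase that brings enzymes to melanosomes, had 122, 116, 127 and 116 CPM in mutants, against 7.14, 7.96, 11.9 and 9.95 CPM in siblings. It rose 13.0-fold (log2 fold change 3.70, SE 0.172, adjusted p = 2.5e-06, edgeR), with no high or low mutant library. myo5aa, for myosin Va that moves organelles along actin, had 37.2, 39.4, 48.5 and 47.3 CPM in mutants, against 1.89, 2.79, 4.19 and 7.29 CPM in siblings (log2 fold change 3.41, adjusted p = 2.2e-04, edgeR). The related GTPase gene rab32a rose 2.19-fold and the BLOC-1 subunit gene dtnbp1a 2.35-fold. Of the genes that did not pass, oca2, for a melanosome channel, had 2.88, 2.94, 0.428 and 10.1 CPM in mutants, against 2.02, 6.60, 0.978 and 10.1 CPM in siblings.

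**Figure D4:**
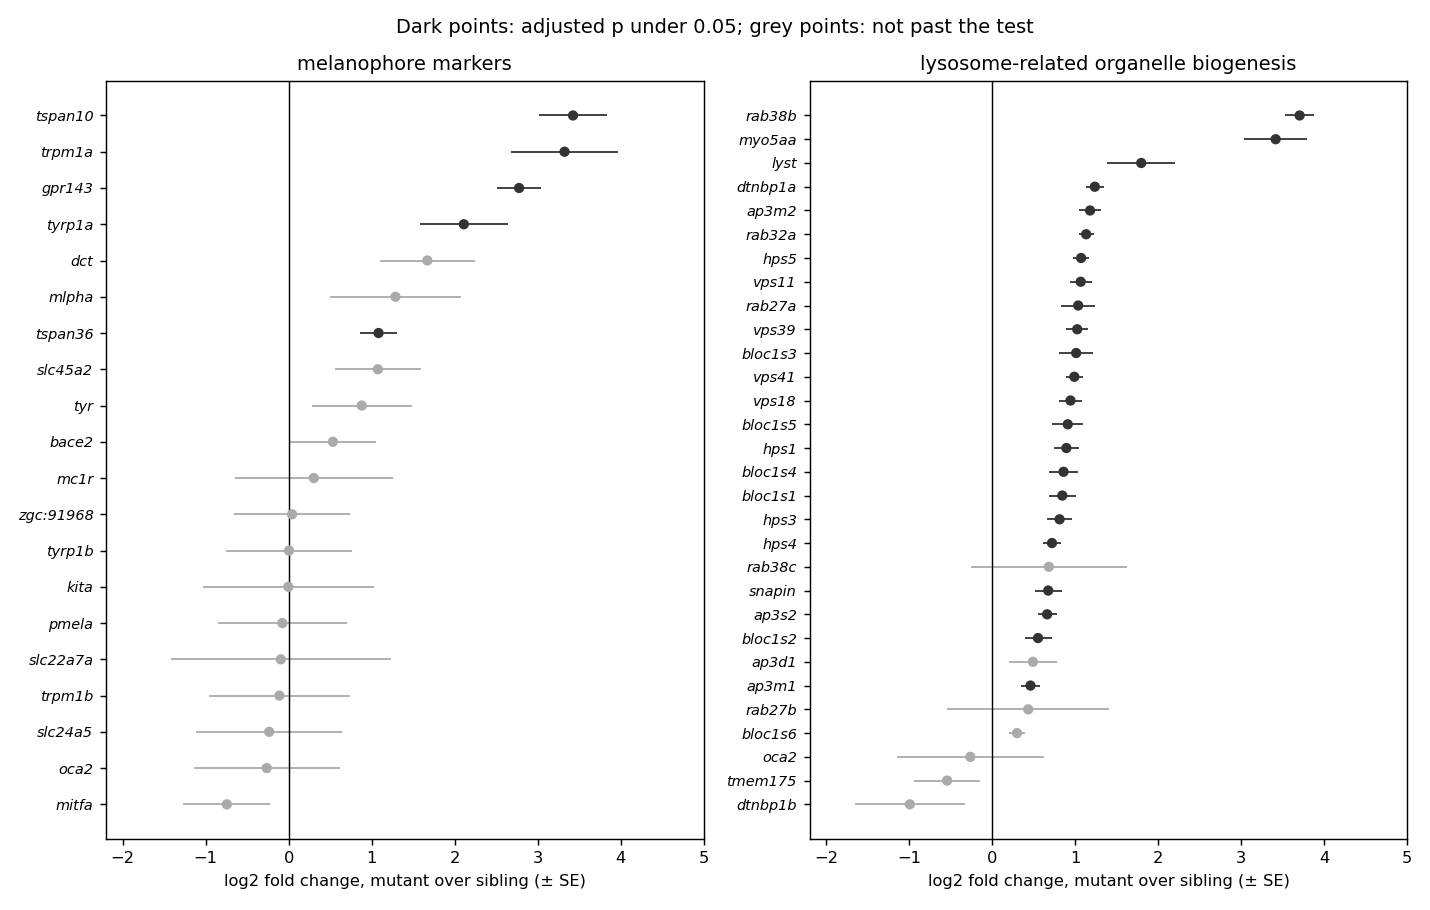
Log2 fold change of mutant over sibling with its SE for the 20 tested melanophore markers (left) and the 30 tested genes of lysosome-related organelle biogenesis (right), dark where the adjusted p was under 0.05. In the left panel 5 genes are dark, from tspan36 at 1.08 to tspan10 at 3.43, and in the right panel 23 are dark, with rab38b at 3.70 the highest.

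MiT/TFE target genes rose in 23 of 33 tested cases and fell in 0, beside 14.5% and 13.9% of all tested genes. Their median log2 fold change was 0.92, against -0.09 for all tested genes. With library number as a block 24 rose and 1, gusb, fell, where 17.8% and 16.6% of all tested genes did. Like the other lists, this one was chosen with earlier results of these data known. The lysosomal calcium channel gene mcoln1a had 198, 191, 186 and 238 CPM in mutants, against 43.2, 45.5, 51.9 and 53.6 CPM in siblings. Its highest mutant library was number 5, as for gpnmb, and gpnmb over mcoln1a was 18.1 to 26.2 in mutants and 0.889 to 1.73 in siblings. As gpnmb was chosen for its difference between the genotypes, the gap between these ranges is not a separate result.

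Genes known from lipid-loaded and lysosome-stressed macrophages of mammals, a state in which GPNMB is a common marker, formed a list of 40 tested genes. Of these 15 rose and 7 fell, or 37.5% and 17.5%, beside 14.5% and 13.9% of all tested genes, so the share that fell was near the background. Of the 7 that fell, 2 are separate gene IDs of the same symbol, mmp13a, which may share reads. Their median log2 fold change was 0.30, against -0.09 for all tested genes. spp1, for the secreted glycoprotein osteopontin, which mammalian macrophages of this state also make, had 17.9, 15.9, 8.72 and 35.2 CPM in mutants, against 0.130, 0.850, 0.196 and 4.30 CPM in siblings. It rose with a log2 fold change of 3.81 (adjusted p = 0.0155, edgeR) at a mean of 19.4 CPM in mutants, where gpnmb had 4477 CPM. acp5b, for an acid phosphatase of osteoclasts and macrophages, rose to 16.8 ± 7.21 CPM against 2.56 ± 1.53 CPM. The apolipoprotein gene apoc1 fell to 43.7 ± 7.09 CPM against 169 ± 62.1 CPM, and the cholesterol exporter gene abca1a to 81.4 ± 10.1 CPM against 145 ± 17.8 CPM. The lipid droplet gene plin2 stood at 37.6 ± 6.81 against 32.8 ± 11.96 CPM (adjusted p = 0.593, edgeR).

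The genes with the profile most like gpnmb were found by the root mean square difference between log2 CPM profiles, each centred on its own mean over the 8 libraries, among 7190 genes with an assigned symbol. This measure keeps the size of the change, and gpnmb was chosen for its difference between the genotypes. Genes with a similarly large fold therefore come out closest, and their large folds are not a separate result. mmp25b, for a membrane-anchored matrix metalloproteinase, was closest (difference 0.378, against a median of 2.99 over all compared genes), at 871, 862, 811 and 945 CPM in mutants and 14.0, 16.2, 18.3 and 17.6 CPM in siblings. It was followed by the ubiquitin ligase family gene trim35-10 (0.400), the caspase gene casp3b (0.488), the actin-monomer binding gene twf2a (0.573), the growth factor receptor gene fgfr2 (0.578), tex2l (0.611), the transcription factor gene helt (0.651) and hnmt for histamine methyltransferase (0.694). hnmt, at 251 ± 70.3 against 8.39 ± 2.46 CPM, and casp3b, at 151 ± 38.3 against 2.99 ± 0.540 CPM, were the next most abundant. The fitted folds of these 8 genes ran from 29.9 for hnmt to 193 for tex2l, where gpnmb had 62.6.

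Next to gpnmb on chromosome 19, oxnad1 (GRCz11, 20274264 to 20293884, plus strand) also rose. oxnad1 begins 4057 bases from the annotated start of gpnmb and is transcribed away from it, and it was chosen for its position. It encodes a protein with an oxidoreductase-type NAD-binding domain. oxnad1 had 235, 282, 272 and 245 CPM in mutants, against 18.2, 24.96, 39.8 and 31.2 CPM in siblings, a rise of 9.06-fold (log2 fold change 3.18, SE 0.226, adjusted p = 1.7e-05, edgeR). The groups did not overlap, and the order of mutant libraries was not that of gpnmb. igf2bp3, which ends 98 bases beyond the other end of gpnmb on the opposite strand, had 51.2, 67.6, 56.7 and 78.7 CPM in mutants, against 43.6, 52.8, 53.5 and 81.0 CPM in siblings, and did not pass (adjusted p = 0.666, edgeR). No annotated gene of the table overlaps gpnmb. Of the other 14 tested genes that start within 500000 bases of the gpnmb start 4 rose and 1 fell, beside 14.5% and 13.9% of all tested genes. Their median log2 fold change was 0.24, against -0.09 for all tested genes. rftn1a, the next gene on the side of oxnad1, rose at a level of 0.619 ± 0.197 CPM against 0.114 ± 0.101 CPM (adjusted p = 0.0452, edgeR).

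**Figure D5:**
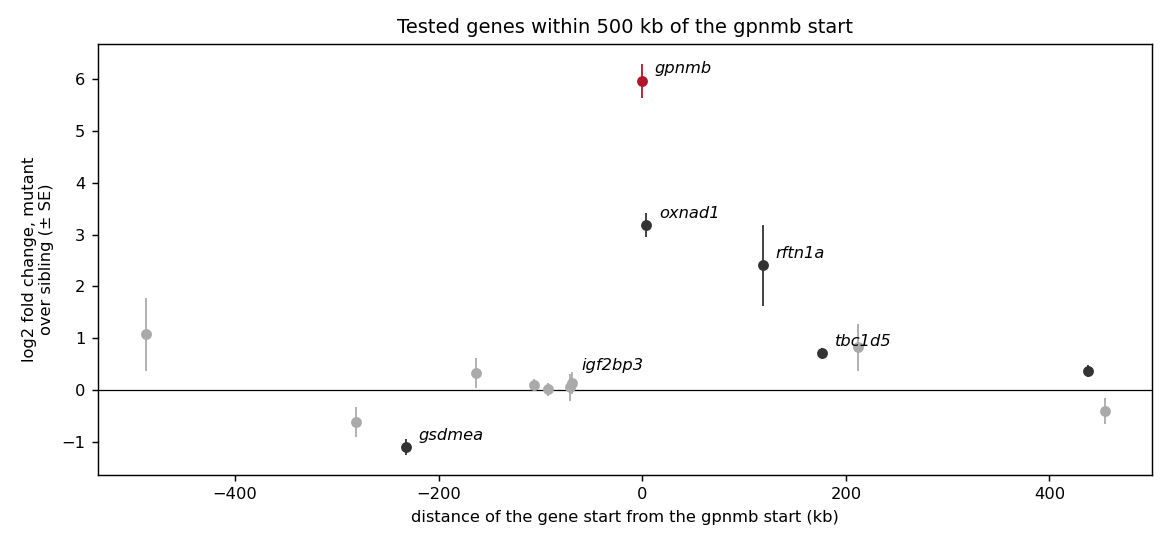
Log2 fold change with its SE of the tested genes that start within 500000 bases of the gpnmb start, against the distance between starts in kb, with gpnmb in red, genes past the test dark and others grey. gpnmb stands at 5.97 and oxnad1, the nearest start, at 3.18, while igf2bp3 is at 0.14.

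Markers of other cells were detected as well. Neutrophil markers summed to 1248 to 2620 CPM in mutants and 470 to 1799 CPM in siblings, and lect2l, the most abundant of them in mutants, rose 7.58-fold while mpx for myeloperoxidase did not pass (479 ± 296 against 607 ± 310 CPM). Muscle markers summed to 440 to 3933 CPM in mutants and 2546 to 4599 CPM in siblings, with mutant libraries 2 and 4 lowest. Keratinocyte markers summed to 217 to 754 CPM in mutants and 656 to 1015 CPM in siblings. Of 21 macrophage lineage markers 1 rose and 14 fell, or 4.76% and 66.7%, beside 14.5% and 13.9% of all tested genes. The one that rose was spi1b, for the factor PU.1 (1428 ± 47.5 against 685 ± 75.8 CPM). Their part in the level of gpnmb was not tested.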

How the data were processed

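Counts are raw reads per Ensembl gene, per the file headers of the deposited table, which also gives gene length. The submitters' processing notes list, with no role, HISAT2 2.0.5, StringTie 1.3.3b, featureCounts 1.5.0 and GRCz11. No source used here gives the strand setting. Another 16 per-library columns and 2 genotype means were not used.

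Columns were assigned to genotypes by name. filterByExpr (minimum count 10) left 16086 of 24221 genes, which were scaled by TMM and compared by the two-sided quasi-likelihood test of edgeR 4.0.16 in R 4.3.3, Benjamini-Hochberg adjusted over all tested genes at 0.05. CPM use TMM-scaled library sizes, and TPM use counts and gene length. Likeness used log2(CPM + 0.5). The SE is the log2 fold change over the square root of F. Alternatives included limma 3.58.1 (voom) and DESeq2 1.42.0. The procedure was tested on simulated data.

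Same-numbered libraries deviated together (correlations 0.160 to 0.373, against -0.231 to 0.00133 otherwise). The numbers in the column names were therefore taken as pairs in the paired folds and in the alternative fit with library number as a block. The main fit did not use these pairs, and all calls and adjusted p-values come from it unless another setting is named. Within a genotype, libraries differed by a chi-square of 50.1 to 104.7 for each degree of freedom, so none repeated another. The gene and the lists were chosen with earlier results of these data known. The rule for named genes took gpnmb, its factors, relatives, sheddases and partners of at least 10 CPM, the 4 most abundant and all called genes of each pigment list, the 3 leading genes in each direction and the most abundant of other lists, and the nearest genes in profile, fold and TPM. Genes named outside it, such as plin2, spp1, acp5b, myo5aa, oca2, mpx and mpeg1.1, were chosen after their values were seen, and the neighbours of gpnmb by position. Of 281 listed symbols, 21 had no row.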

Additional observations from a re-analysis of the deposited data

Results flagged for a closer look

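In 18 of 200 groups of 4 libraries examined, 1 library stood apart from the other 3 by Dixon's ratio at the 95% level, where chance gives about 1 in 20. Neither group of gpnmb was among them.

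Library 5 of both genotypes stood above the others for 3 genes and 1 sum. gch2 was at 1757 CPM in mutant library 5 and 1490 CPM in sibling library 5. aox5, for an aldehyde oxidase of xanthophores, was at 299.7 CPM in mutant library 5 and 202 CPM in sibling library 5. tmem130 was at 131 CPM in mutant library 5 and 91.5 CPM in sibling library 5. The summed xanthophore markers were at 2070 CPM in mutant library 5 and 1707 CPM in sibling library 5. sox10 was at 21.4 CPM in mutant library 5.

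In sibling library 5 alone, itga5 (18.9 CPM), akr1b1 (188 CPM) and hnmt (12.05 CPM) stood above the other siblings. In sibling library 4, itgb1b.1 (62.5 CPM) and havcr2 (116 CPM) stood above and si:dkey-18p12.4 (65.4 CPM) below the others. In mutant library 2, atp6ap1b (1971 CPM) and zgc:152830 (2489 CPM) stood above and twf2a (41.7 CPM) below the others.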

How the results depend on the processing

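With 1 library left out, the log2 fold change of gpnmb was 5.79 to 6.10, and it kept its direction under every alternative run. Its lowest mutant library stood 37.6-fold above its highest sibling library, and gpnmb was chosen for this difference. The kept direction is therefore not a separate result. Leaving out 1 library gave 1919 to 2203 genes higher and 1671 to 2093 lower in mutants, against 2334 and 2233 with all libraries. It gave 8 to 11 pigment genes higher and 0 to 4 lower, 5 to 7 melanophore markers higher and 0 to 1 lower, and 0 to 1 MiT/TFE targets lower. The log2 ratio of summed xanthophore markers ran from -2.16 without mutant library 5 to 1.23 without sibling library 5. Library number as a block, the paired fit, gave 15 pigment genes higher and 8 lower, 10 melanophore markers higher, and 1 MiT/TFE target lower. 1 MiT/TFE target was also called lower with library size alone, with upper-quartile factors, with a stricter filter and with limma-voom. Pigment genes called lower were 1 with the stricter filter and 4 with DESeq2. Without both libraries numbered 5, a setting added after the values were known, 1406 genes were lower, as were 4 pigment genes, 1 melanophore marker and 4 lipid-associated macrophage genes. The cause of these changes was not tested. Among 96 named genes 75 kept their call under all alternatives, and 0 reversed. Depth limits genes such as trpm1a, pmelb and rftn1a, which have few reads.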

Other observations

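Enzymes of purine synthesis serve iridophores for guanine crystals and all cells for nucleotides. Of 10 tested genes 4 rose and 1 fell, or 40% and 10%, beside 14.5% and 13.9% of all tested genes. ppat, for the first enzyme of the pathway, had 135, 119, 119 and 133 CPM in mutants, against 34.4, 28.3, 30.1 and 40.4 CPM in siblings (3.80-fold, adjusted p = 1.4e-05, edgeR's quasi-likelihood test). atic, for the last steps to inosine monophosphate, rose to 152 ± 58.2 CPM against 39.0 ± 14.5 CPM, and paics rose to 131 ± 16.5 CPM against 49.3 ± 14.2 CPM (SD, n = 4 each). impdh2, for the branch to guanine nucleotides, fell to 34.9 ± 2.16 CPM against 70.4 ± 10.9 CPM. The mutant libraries of ppat lay close together and did not overlap the siblings.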
